A study of Mus musculus with 2 samples.

Results

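The distal Dlk1-Dio3 cluster is a run of microRNA genes on the plus strand of mouse chromosome 12 that begins with Mir379. Its members were all microRNA genes annotated wholly within chr12:109709060-109747960 (mm10, GENCODE M21) on that strand, genes without reads included, and they were 39 of the 2202 genes in the tables. The rule uses position alone and no measured value. MicroRNA-seq, which sequences short RNA (under 30 bases here), was carried out on total RNA from the left cerebral cortex of adult males, 8 to 10 months of age, of a mouse strain labelled 5xFAD/CAST. 5xFAD mice carry human amyloid precursor protein and presenilin transgenes that are expressed in neurons under the Thy1 promoter and form amyloid plaques, and CAST names an inbred line descended from wild-caught mice. Whether these males carried the transgenes is not stated in the labels. Replicates 1 and 2, the 2 libraries of the only group, were made from separate biosamples registered under 1 donor identifier. P-values between them set each difference against counting error alone. Whether such a difference is technical or lies between mice cannot be told, and no control samples are analysed here.

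The Dlk1-Dio3 region is imprinted. Its non-coding RNAs and microRNAs are made from the chromosome inherited from the mother, while its protein-coding genes, Dlk1 among them, are expressed from the paternal one. The distal microRNAs are thought to be cut from a long shared transcript, the cluster is found in placental mammals, and its expression is high in brain and placenta. In neurons its transcription rises with activity through the factor Mef2, and several of its products regulate dendrites and synapses. A microRNA precursor folds into a hairpin from which a 5p and a 3p arm are cut, and the seed, bases 2 to 8 of a mature arm, does most of the pairing with target messenger RNAs.

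Mature arms of abundant members are given here, because they show which of these have a seed in common, together with that of the less abundant Mir134 for its known part in neurons. They are the RefSeq sequences (GRCm38.p6), written 5′ to 3′ with the seed in capitals.
mmu-miR-411-5p: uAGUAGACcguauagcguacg
mmu-miR-411-3p: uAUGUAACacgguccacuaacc
mmu-miR-379-5p: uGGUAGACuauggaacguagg
mmu-miR-379-3p: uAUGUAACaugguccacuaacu
mmu-miR-382-5p: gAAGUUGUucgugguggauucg
mmu-miR-382-3p: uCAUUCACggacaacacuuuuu
mmu-miR-487b-5p: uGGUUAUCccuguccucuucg
mmu-miR-541-5p: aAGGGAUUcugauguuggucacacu
mmu-miR-369-3p: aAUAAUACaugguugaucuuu
mmu-miR-485-3p: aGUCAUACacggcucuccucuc
mmu-miR-154-3p: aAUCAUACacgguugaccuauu
mmu-miR-376a-3p: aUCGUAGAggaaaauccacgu
mmu-miR-134-5p: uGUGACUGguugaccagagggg
RefSeq entries matched 38 of the 39 members, with 71 mature arms of 19 to 25 bases. For Mir487b and Mir485 only the arm printed here is listed, so the seed of the other arm is not covered. The counts are given per precursor gene, so no value here tells the 5p from the 3p arm.

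Sense reads on microRNA genes numbered 4929428 in replicate 1 (30.1% of its 16403925 reads) and 4441328 in replicate 2 (26.1% of 16991914). Levels are sense counts per 1000000 assigned reads (CPM), so that 1 read is worth 0.203 CPM in the first library and 0.225 CPM in the second. Errors are SDs around the mean of both libraries (n = 2). The brain microRNAs Mir137 and Mir128-1 stood between 6351 and 13556 CPM, the liver microRNA Mir122 at 69.0 and 50.9 CPM, and the heart microRNAs Mir208a and Mir208b at 2.23 CPM or less.

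Most of the cluster was expressed in this cortex. Of the 39 members, 34 (87.2%) reached 10 reads in both libraries and are called detected, against 417 of all 2202 microRNA genes (18.9%). Together the members took 4.38% of the microRNA reads in replicate 1 (exact binomial 95% interval 4.37 to 4.40%) and 4.63% in replicate 2 (4.61 to 4.65%), a mean of 4.51 ± 0.176%. These intervals cover counting error only. The median level of all 39 members, as log2(CPM + 1), was 8.09 in replicate 1 and 7.78 in replicate 2. Over the detected members the median was 8.15 ± 0.33, and over all detected microRNA genes it was 6.55 ± 0.12. The median over 39 counts members without reads, and the medians over detected genes do not.

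Levels within the cluster varied widely, and a minority of members held most of the reads. By mean CPM, 11 members stood over 1000, 15 between 100 and 1000, 7 between 10 and 100, and 3 between 0 and 10, while 3 had no read. Of the 100 most abundant microRNA genes in this tissue, 12 were members. The 5 most abundant members took 60.8% of the cluster's reads in replicate 1 and 69.1% in replicate 2. The 10 most abundant took 82.7% and 86.9%, and the first 15 took 93.0% and 94.6%. Among the detected members the highest mean was 987-fold above the lowest. A read covers a whole mature microRNA, so CPM was not divided by length. When it was divided by the length of the gene (61 to 123 bases), the 10 most abundant members were the same 10.

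**Figure D1:**
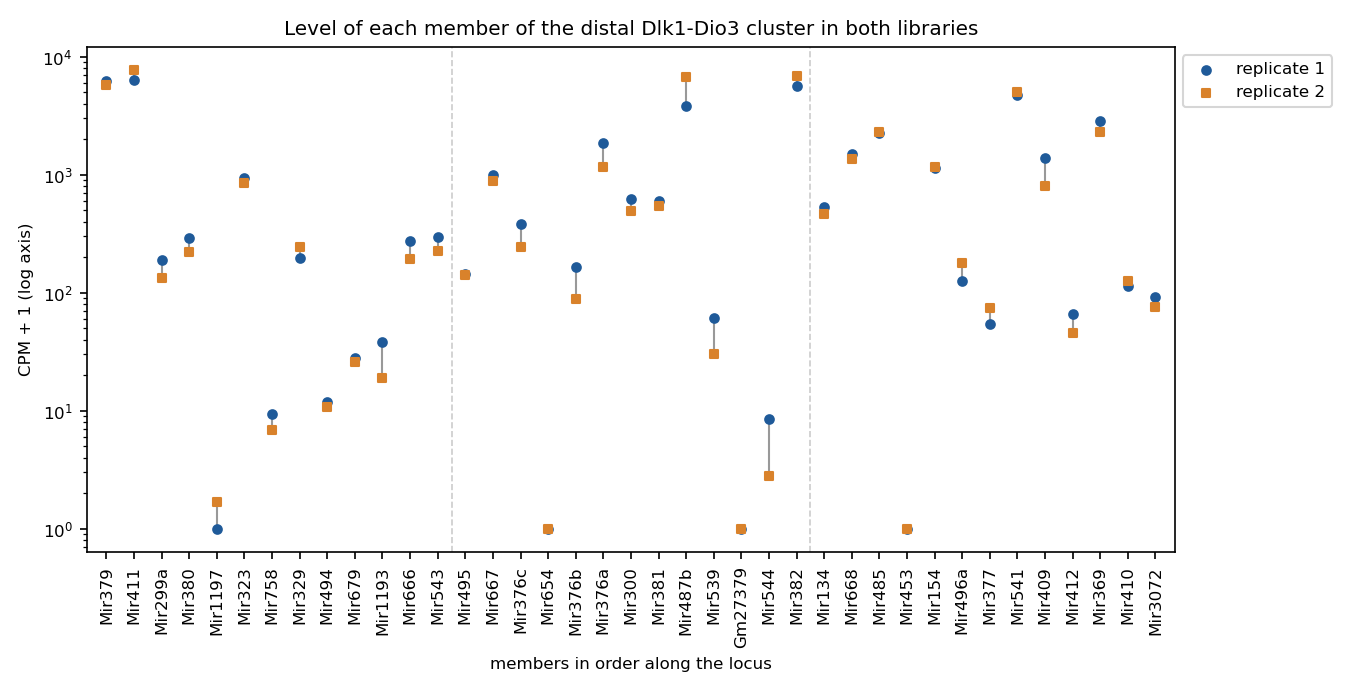
CPM + 1 (log axis) of each of the 39 members in both libraries, in order along the locus from Mir379 to Mir3072; circles are replicate 1, squares are replicate 2 and dashed lines mark the 3 runs of 13 members. High and low members are mixed along the locus, from 6995 CPM at Mir411 to no read at Mir654, Gm27379 and Mir453.

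The most abundant member was Mir411 (ENSMUSG00000065477.3, chr12:109710175-109710256). Its level was 6282 CPM in replicate 1 and 7707 CPM in replicate 2 (6995 ± 1008 CPM), the highest of the cluster in both libraries and rank 28 among all microRNA genes. Mir382 (ENSMUSG00000065428.4, chr12:109733771-109733846) stood at 5667 and 6838 CPM (6252 ± 828 CPM). Mir379 (ENSMUSG00000065498.4, chr12:109709060-109709125), the first member and the one for which the cluster is often named, stood at 6208 and 5696 CPM (5952 ± 362 CPM). The SD ranges of these 3 overlap, and their order below Mir411 differed between the libraries: Mir379 was second in replicate 1, and Mir382 was second in replicate 2. Mir487b (chr12:109727333-109727414) had 3785 and 6767 CPM (5276 ± 2109 CPM), the widest spread in CPM of any member. Mir541 (chr12:109742409-109742498) had 4713 and 4993 CPM (4853 ± 198 CPM). Its mean lay within the spread of that of Mir487b, and in replicate 1 it was the higher of the pair.

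A step down in mean level separated these 5 from the rest. It was wide in replicate 2, from 4993 CPM at Mir541 to 2294 CPM at Mir485. In replicate 1 it was narrower, from 3785 CPM at Mir487b to 2862 CPM at Mir369. Mir369, whose 3p arm is known to act on the messenger RNA of tumour necrosis factor, had 2862 and 2276 CPM (2569 ± 415 CPM). Mir485, a microRNA that acts at synapses and targets the synaptic vesicle protein SV2A, had 2255 and 2294 CPM (2275 ± 27.4 CPM). Mir376a had 1854 and 1157 CPM (1505 ± 492 CPM), Mir668 had 1505 and 1366 CPM (1435 ± 98.8 CPM), and Mir154 had 1146 and 1164 CPM (1155 ± 12.5 CPM). Mir485 and Mir154 were the steadiest of the 10, with libraries that lay closest together, and Mir376a was lower in replicate 2 than Mir668 although its mean was higher. Mir409, at 1083 ± 407 CPM, was the last member over 1000 CPM.

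The member best known for its work in neurons, Mir134, which limits dendritic spine growth through the kinase Limk1, was of middle rank. Its libraries gave 534 CPM (replicate 1) and 459 CPM (replicate 2) (497 ± 53.4 CPM), rank 126 of all microRNA genes. Mir381 (567 ± 38.8 CPM) and Mir329 (218 ± 33.7 CPM), which like Mir134 take part in activity-dependent growth of dendrites, bracketed it. Mir495, which can target the messenger RNA of the growth factor Bdnf, was at 141 ± 3.33 CPM.

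Few members were without reads. Counting was against the mm10 reference, and whether CAST differences from it lowered any count was not tested. Mir654 (chr12:109723218-109723301), Mir453 (chr12:109735619-109735700) and Gm27379 (chr12:109728821-109728943) had no sense read in either library, a count that still allows a level of 3 reads, or 0.609 CPM (replicate 1) and 0.675 CPM (replicate 2). Mir1197 had no read in replicate 1 and 3 reads in replicate 2. Mir544 had 37 reads (7.51 CPM) in replicate 1 and 8 (1.80 CPM) in replicate 2, so that it missed the limit for detection in replicate 2 alone. The lowest detected members were Mir758, at 8.32 and 5.85 CPM, and Mir494, at 10.8 and 9.68 CPM. Mir758 lies between Mir323 (889 ± 53.9 CPM) and Mir329, each of them far higher.

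The reads were spread over the whole length of the cluster, but in steps. The members span 38901 bases, and the gaps between neighbours ranged from 20 bases, before Mir1193, to 4368 bases, before Mir382, with a median of 556. Divided into 3 runs of 13 members in order of position, the first run took 33.3 ± 0.381% of the cluster's reads, the second 34.8 ± 3.18% and the third 31.9 ± 2.80%. In replicate 1 the shares were 33.6%, 32.6% and 33.8%, and in replicate 2 they were 33.1%, 37.1% and 29.9%. The order of the runs therefore differed between the libraries, with the third run highest in replicate 1 and the second in replicate 2. The make-up of the runs was unequal: members over 1000 CPM numbered 2 in the first, 3 in the second and 6 in the third. The median log2(CPM + 1) of all 13 members was 7.60 ± 0.0028 in the first run, 8.25 ± 0.47 in the second and 8.95 ± 0.16 in the third. The first run thus rested on Mir379 and Mir411, which lie within 1.115 kb at its start and by themselves held 28.5% of the cluster's reads in replicate 1 and 28.9% in replicate 2.

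**Figure D2:**
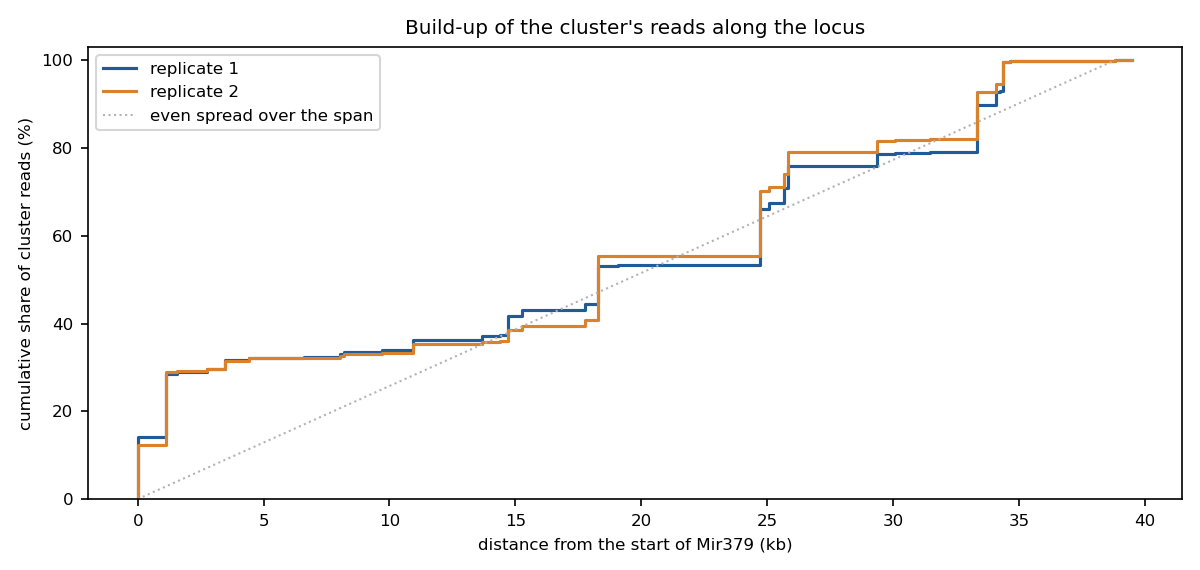
Cumulative share of the cluster's reads (%) against distance from the start of Mir379 (kb), for replicate 1 and replicate 2; the dotted line is an even spread over the span. The lines reach 28.5% and 28.9% by Mir411 and then rise in large steps at Mir487b, Mir382 and Mir541, ending with Mir369 at 99.5% and 99.6%.

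Neighbours in the locus mostly stood at unlike levels. Over the 34 detected members, the Spearman rho of mean level with position was 0.07, and over the 33 pairs of neighbouring detected members the rho of their levels was 0.07. The median step between such neighbours was 2.21 on the log2 scale. These are descriptions across genes of the same 2 libraries, which are not independent replicates. The rho of level with gene length was -0.13. Around Mir409 the contrast was sharp: Mir541 stood at 4853 CPM, Mir409 at 1083 CPM, Mir412 at 54.5 CPM, Mir369 at 2569 CPM and Mir410 at 118 CPM, all within a stretch that ends at 34.655 kb from the start of Mir379 and begins at 33.349 kb. The last member, Mir3072 (chr12:109747878-109747960), stood apart from the others at 38.818 kb and had 90.9 and 75.0 CPM (82.9 ± 11.2 CPM).

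The annotation places 14 members within the long non-coding RNA gene Mirg (chr12:109729764-109749460, plus strand), from Mir382 to Mir3072, and gives no host gene on the same strand for the other 25. Members in Mirg took 46.8% of the cluster's reads in replicate 1 and 44.6% in replicate 2. Those before it took 53.2% and 55.4%. Among the detected, 13 members in Mirg had a median of 971 ± 248 CPM and 21 before it had a median of 256 ± 47.3 CPM. Within Mirg, 4 members lay in exons (Mir134, Mir485, Mir377 and Mir410), 5 in introns (Mir453, Mir154, Mir496a, Mir541 and Mir409), and 5 across the edge of an exon (Mir382, Mir668, Mir412, Mir369 and Mir3072). High and low members occurred in each of the 3 positions, as Mir485 and Mir377 show for exons, Mir541 and Mir453 for introns, and Mir382 and Mir412 for exon edges. Fewer cells that make a microRNA and less of it per cell cannot be told apart in these bulk samples.

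Members that share a seed could pair with the same sites. Both arms were listed for 33 members, so a seed shared through an unlisted arm is missed here. Among the 71 listed mature arms there were 65 distinct seeds, of which 6 were each shared by 2 members. No other mouse microRNA in the RefSeq table had any of these 6. The 3p arms of Mir379 and Mir411 have 1 of these in common, and the arms of the remaining sets follow, again with the seed in capitals.
mmu-miR-1193-5p: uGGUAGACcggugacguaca
mmu-miR-376c-5p: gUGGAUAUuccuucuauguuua
mmu-miR-376b-5p: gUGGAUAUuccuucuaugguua
mmu-miR-496a-5p: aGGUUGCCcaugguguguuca
mmu-miR-453: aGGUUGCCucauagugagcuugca
mmu-miR-494-5p: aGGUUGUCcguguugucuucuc
mmu-miR-410-5p: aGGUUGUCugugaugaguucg
mmu-miR-758-5p: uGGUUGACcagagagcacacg
mmu-miR-1197-5p: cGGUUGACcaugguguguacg
The seed AUGUAAC, of the 3p arms of Mir379 and Mir411, belonged to the 2 genes with the highest joint level of any seed set, 12489.9 CPM in replicate 1 and 13403 CPM in replicate 2 (12947 ± 646 CPM). GGUAGAC, of the 5p arms of Mir379 and Mir1193, stood at 5979.5 ± 375 CPM, nearly all of it counted at Mir379. UGGAUAU, of Mir376c and Mir376b, stood at 435 ± 153 CPM. The other 3 sets were low: 150.3 ± 37.8 CPM for GGUUGCC, counted at Mir496a alone since Mir453 had no read, 128 ± 7.04 CPM for GGUUGUC, of which Mir410 held most, and 7.42 ± 1.26 CPM for GGUUGAC, of Mir758 and Mir1197. In each set but those of Mir379 with Mir411 and of Mir376c with Mir376b, 1 member thus held nearly all of the joint level. These sums are of both arms of each gene.

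Beyond shared seeds, 44 pairs of listed arms had seeds that were 1 base apart, and they involved 27 members. Positions are counted from 1 at the 5′ end of the mature arm, with the base of the first-named arm first. The 5p arms of Mir379 and Mir411, the most abundant such pair, are related by G2A. The 3p arm of Mir485 is related to that of Mir154 by G2A, and the latter to that of Mir369 by C4A, which links 3 members over 1000 CPM. The 3p arms of Mir300 and Mir381 are related by G4A, and they are shown because their genes stood at nearly equal levels.
mmu-miR-300-3p: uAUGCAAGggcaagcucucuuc
mmu-miR-381-3p: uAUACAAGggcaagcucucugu
Mir300 had 618 and 492 CPM, and Mir381 had 594 and 539 CPM, so that each was the higher in 1 library. Mir376b-3p and Mir376a-3p are related by A4G, which is a difference between the reference sequences of these genes and not an editing event. Separately, RNA of this family is known to be edited from adenosine to inosine in the seed, and the counts do not show editing.

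Among alike hairpins, some pairs stood at unlike levels and others at nearly equal ones. Whether alike pairs differ in level more or less than other pairs was not tested. Over the 36 members with a hairpin in the table, the 630 pairs had a median identity of 50.6%. The most alike pair, Mir376c and Mir376b (80.7%), stood 2.50-fold apart, with Mir376c at 381 and 240 CPM and Mir376b at 162 and 86.5 CPM. Mir411 and Mir758 (73.8%) were the extremes of the detected members, and Mir300 and Mir381 (73.8%) differed by 1.02-fold. The first 2 of these pairs are printed as hairpins with their longest shared stretch in capitals. It has 31 bases for the first and 21 for the second. A read that lies wholly in such a stretch cannot be assigned to 1 gene, but no listed mature arm of these genes does so.
Mir376c: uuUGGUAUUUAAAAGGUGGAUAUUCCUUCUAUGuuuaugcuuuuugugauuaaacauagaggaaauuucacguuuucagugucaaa
Mir376b: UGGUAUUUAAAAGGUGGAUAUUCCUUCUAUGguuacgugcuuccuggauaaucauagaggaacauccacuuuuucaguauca
Mir411: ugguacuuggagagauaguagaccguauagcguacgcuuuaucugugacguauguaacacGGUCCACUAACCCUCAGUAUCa
Mir758: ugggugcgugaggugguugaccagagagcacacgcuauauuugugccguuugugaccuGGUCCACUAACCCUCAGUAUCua
Of the 39 members, 5 hold a run of 20 bases found again in a second microRNA gene of the annotation, in each case another member: Mir411 with Mir758, Mir376c with Mir376b, and Mir376b with Mir487b. These 5 held 24.2% of the cluster's reads in replicate 1 and 32.0% in replicate 2. None of their listed mature arms lies wholly within a shared run. Reads listed as mapping to several places, 38.5% and 33.0% of all reads, are not in the gene counts, and how many of them came from these members was not measured.

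**Figure D3:**
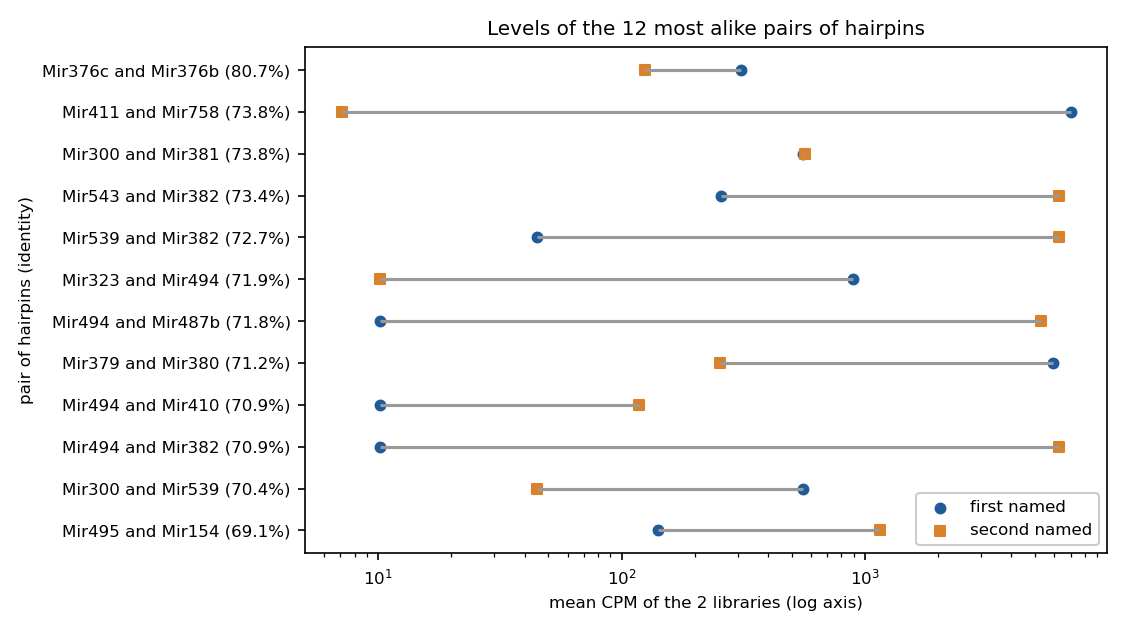
Mean CPM (log axis) of both members of the 12 pairs of hairpins with the highest identity, which is given in brackets; circles are the member named first and squares the one named second. Mir300 and Mir381 coincide, while Mir411 and Mir758 lie 987-fold apart.

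Short words recur in the hairpins. The 6-base word UUCGCU occurred in 10 of 36 member hairpins (27.8%) and in 0.416% of the 961 other mouse hairpins in the table. The members with it ranged from Mir382 (6252 CPM) to Mir377 (63.0 CPM). UACUUG, near the 5′ end of the hairpin, also occurred in 10 of 36, from Mir411 (6995 CPM) to Mir453 (no read), and in 1.66% of the others. The reverse complement of neither was in a member hairpin. Both words were chosen after all 6-base words of the members had been counted, and alike hairpins are not independent of each other.

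Between the 2 libraries, most detected members differed by more than counting error, and by less than 2-fold. Each gene's counts were compared by an exact binomial test (two-sided, Benjamini-Hochberg adjusted over the 417 detected genes), which sets these libraries and no conditions against each other. By it, 20 of 34 members were lower in replicate 2, 7 were higher and 7 did not pass an adjusted p of 0.05. Of all genes tested 59.2% passed, 24.7% as higher and 34.5% as lower, against 20.6% and 58.8% of the members. The background depends on depth, and the detected members are deeper than the detected genes as a whole (median 289 against 93.0 CPM). Among the 310 genes with at least 50 counts in each library, 30.3% were higher and 43.5% lower, beside 7 and 20 of the 32 members. Members higher in replicate 2 were Mir411, Mir382, Mir487b, Mir541, Mir329, Mir377 and Mir496a, of which the first 4 are among the 5 most abundant, so the cluster as a whole had a log2 ratio of replicate 2 to replicate 1 of 0.08 while the median member had -0.17. Mir485 and Mir154, not past the threshold here, passed it as higher under scaling by TMM factors. By position, lower members numbered 7 of 12 detected in the first run, 7 of 10 in the second and 6 of 12 in the third.

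**Figure D4:**
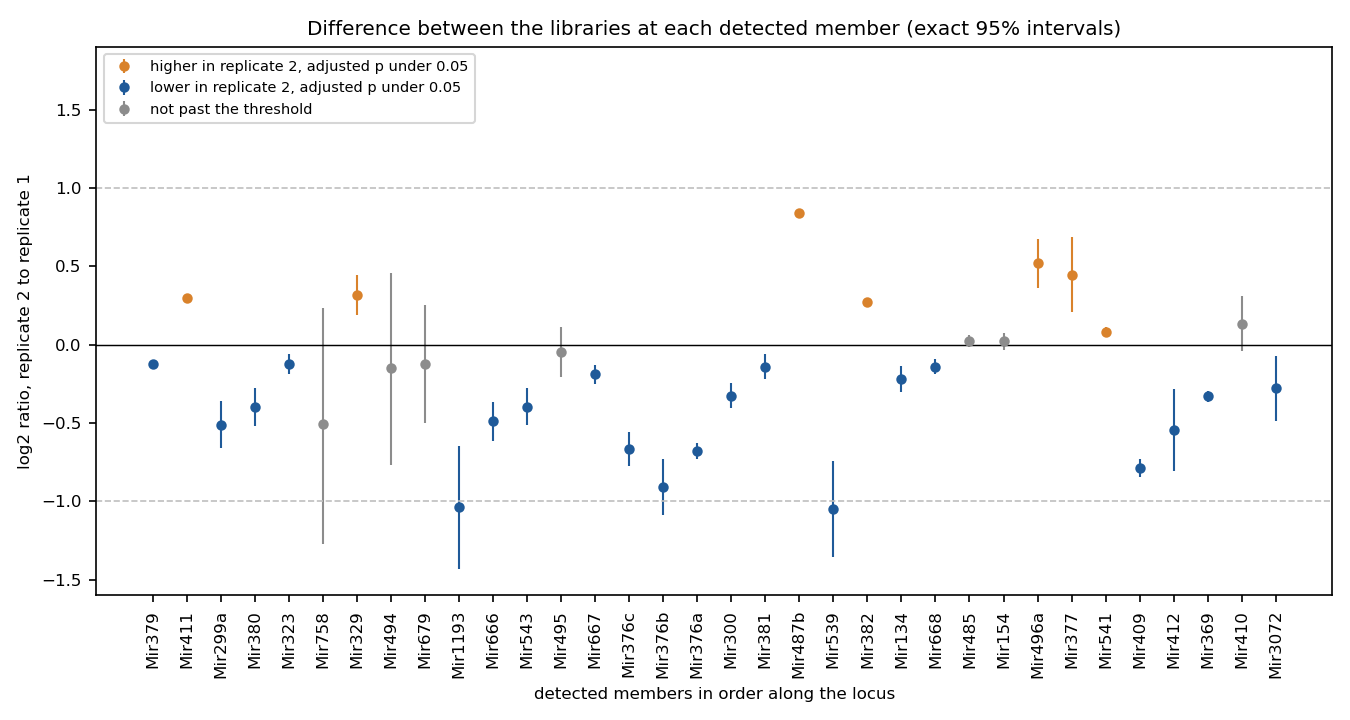
Log2 ratio of replicate 2 to replicate 1 for each of the 34 detected members in order along the locus, with exact 95% intervals; orange points were higher in replicate 2, blue points lower and grey points not past an adjusted p of 0.05, and dashed lines mark 2-fold. Points lie between -1.05 at Mir539 and 0.84 at Mir487b, and the intervals are wide at the members with few reads such as Mir758.

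Only Mir1193 and Mir539 both passed the threshold and differed at least 2-fold, both lower in replicate 2, where 11.3% of all genes tested did so (6.47% higher and 4.8% lower). Mir1193 had 36.9 CPM in replicate 1 and 18.0 CPM in replicate 2, and its log2 ratio was -1.04 (exact 95% interval -1.43 to -0.65, adjusted p = 1.01e-07 in the exact binomial test). Mir539 had 60.5 and 29.3 CPM, a log2 ratio of -1.05 (-1.35 to -0.74, adjusted p = 3.14e-12 in the same exact test). Both are members of low level, and both intervals span 2-fold. Under scaling by TMM factors the log2 ratios were -0.988 for Mir1193 and -0.999 for Mir539, so that neither reached 2-fold. Within 1.5-fold of each other were 27 of the 34 members (79.4%) and 69.5% of all detected genes. The SD of the log2 ratio was 0.44 over members and 0.76 over all detected genes. Neither comparison was matched for depth, and the detected members are deeper than the detected genes as a whole.

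Of the members higher in replicate 2, Mir487b had the highest ratio, 0.84 (exact 95% interval 0.81 to 0.86). It was followed by Mir496a, a microRNA reported to regulate N-cadherin in neuronal progenitors, with 124 and 177 CPM and a ratio of 0.52 (0.36 to 0.67, adjusted p = 7.98e-11 in the exact test), and by Mir377, at 53.4 and 72.7 CPM. At the other end, the 3 members of the miR-376 family fell together, Mir376c by 0.67, Mir376a by 0.68 and Mir376b by 0.91 on the log2 scale. Mir376c, Mir376b and Mir376a are consecutive detected members, and this family was singled out after its values were seen. Mir758, Mir410, Mir494 and Mir379, the other named members of seed sets and the first member, had ratios of -0.51, 0.13, -0.15 and -0.12, of which only that of Mir379 passed the threshold.

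Some markers of the samples differed between the libraries beside the members. The summed level of 4 red blood cell microRNA genes was 602 CPM in replicate 1 and 88.5 CPM in replicate 2, with 3 of the 4 detected and Mir451b at 0. Most of that sum was Mir451a (529 and 52.2 CPM), with Mir144 also lower in replicate 2 (57.8 and 6.30 CPM), while Mir486 was higher there (74 and 133 reads, a log2 ratio of 0.996). The summed level of the brain microRNAs Mir137 and Mir128-1 was 25894 CPM in replicate 1 and 13843 CPM in replicate 2, and both were lower in the latter. They do not stand for all microRNAs of brain cells, which went both ways. Mir132 and Mir219a-2 were higher in replicate 2 (log2 ratios of 1.18 and 1.23), while Mir153 and Mir129-2 were lower (-2.60 and -0.73). The part of the red blood cell or brain microRNAs in the members' ratios was not tested.

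The counts at members came from the annotated strand, with 6 reads on the opposite strand in replicate 1 and 1 in replicate 2. At 5 members (Mir299a, Mir380, Mir376a, Mir539 and Mir409) another microRNA gene is annotated on the minus strand. They held 18544 sense reads in replicate 1 and 10359 in replicate 2, while their partners on the minus strand held 3 and 1. In the deposited counts without regard to strand these 5 are listed at 0, so that Mir376a and Mir409, both over 1000 CPM, are missing from that column. All 5 were lower in replicate 2, with a median log2 ratio of -0.68, beside 58.8% of the detected members and 34.5% of all genes tested. This set was looked at after its values were seen, and Mir376a in it also belongs to the miR-376 family named above.

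The proximal microRNAs of the same imprinted region, the 20 genes on the plus strand between Meg3 and Mir379, form the nearest comparison. They took 6.70% of reads in replicate 1 and 5.67% in replicate 2 (6.19 ± 0.728%), more than the 39 distal members in both libraries. Of the 20, 16 (80.0%) were detected, with a median log2(CPM + 1) of 9.72 ± 0.02 against 8.15 ± 0.33 for the detected distal members. Their reads were led by Mir127, at 38107 and 27235 CPM, Mir433, at 11222 and 11937 CPM, and Mir770, at 6230 and 9494 CPM, of which the first 2 lay above every distal member in both libraries and Mir770 lay above them all in replicate 2 but below Mir411 in replicate 1. Of the 16, 7 (43.8%) were lower in replicate 2, 4 (25.0%) higher and 5 not past the threshold, beside 34.5% lower and 24.7% higher of all genes tested. The share of the proximal genes was lower in replicate 2 and that of the distal members higher, and no test of that difference was made.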

How the data were processed

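Per the notes deposited with the files, the authors made tables of raw read counts for 2202 microRNA genes against mm10 with the GENCODE M21 annotation. Which aligner and counter made them is not given in the sources used here. Counts are given without regard to strand, sense and antisense, with 4 unassigned totals that stayed out of library sizes. The sense counts were used. The members are set by position alone, but the cluster and the lists were chosen as subjects with earlier results of these data known. All 2202 identifiers were matched to GENCODE M21, which gave symbols, coordinates (counted from 1) and host genes.

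CPM is the sense count scaled to the 4929428 (replicate 1) or 4441328 (replicate 2) reads assigned to genes. A detected gene has 10 counts or more in both libraries. For log2 levels 1 CPM was added, which compresses low values. Genes were tested between the libraries with an exact binomial test, two-sided, given both totals, and the p-values of the 417 detected genes were adjusted by Benjamini-Hochberg, with 0.05 as threshold (Python 3.11.15, scipy 1.17.1). No molecular identifiers were used, and intervals and floors hold counting error alone. The members' counts in the 2 libraries differed by more than counting error (chi-square of 230.1 per degree of freedom over 34 members). Alternatives were the counts without regard to strand, TMM factors (edgeR 4.0.16 in R 4.3.3), size factors of DESeq2 1.42.0, detection at 50 counts or at 1, a pseudocount of 10 CPM, all reads as denominator, members without shared 20-base stretches, leaving out each library and, chosen after seeing the data, CPM per base. The test between libraries was tried on simulated counts with counting error alone and known folds at some genes. How it behaves under the wider spread of these libraries was not measured.

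Values are given by rule for the 10 most abundant members, those 2-fold apart and past the threshold, those without reads or with under 10 in a library, the first and last, the leading member of each shared seed, and the 3 most abundant proximal genes. Other members with values, and the markers of tissue and red blood cells, were chosen with values known.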

Additional observations from a re-analysis of the deposited data

How the results depend on the processing

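No paired analysis was possible because there is 1 group. The cluster's share of the reads was 1.26% with all reads of the tables as denominator, which include unassigned ones, and 3.24% over the 34 members that share no stretch of 20 bases, which leaves out Mir411 and Mir487b. In the counts without regard to strand, where 5 members are listed at 0, the median level of all members was 7.26 on the log2(CPM + 1) scale and the first run held 34.8% of the cluster. Leaving out either library gave shares of 4.38 to 4.63%, medians of 7.78 to 8.09, 60.8 to 69.1% for the 5 most abundant members, and 33.1 to 33.6%, 32.6 to 37.1% and 29.9 to 33.8% for the 3 runs. Detected members numbered 29 without regard to strand, 32 at 50 counts in each library and 36 at 1 count in either. Members higher in replicate 2 numbered 7 to 9 and members lower 15 to 21 over the 5 alternatives, the lowest being the counts without regard to strand, and no log2 ratio changed sign. Under TMM factors no member was both past the threshold and 2-fold apart, against 2 under total counts. Mir485 passed the threshold under TMM factors (log2 ratio 0.07, adjusted p = 0.000563) and DESeq2 size factors (0.05, adjusted p = 0.0361), and Mir154 under TMM factors (0.07, adjusted p = 0.0220), each in the exact binomial test. Depth limits the ratios of Mir758 and Mir494 most.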
